A study of Rattus norvegicus with 6 samples.

Results

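Hox genes were read in the heart primordium of rat embryos around the first heartbeat. The members were all array probes other than controls whose gene name begins with Hoxa, Hoxb, Hoxc or Hoxd and a number, which gave 28 probes for 26 genes among 30367 probes on the array, and 25 of these genes, with 26 probes, are described. The Hoxa cluster had 6 of them, the Hoxb cluster 8, the Hoxc cluster 5 and the Hoxd cluster 6. Some names on the array are outdated and were replaced through RefSeq, so that the probe the array calls Hoxa9 is given as Hoxa7, the one it calls Hoxa10 as Hoxa11, and the one it calls Hoxa9l as Hoxa9. For Hoxa13, Hoxb1, Hoxb6 and Hoxc6 the array name itself was the only link to the gene.

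Heart primordia were taken on embryonic day 10 from embryos of the strain labeled Wister rat, and the labels name no treatment or allele. Primordia before heartbeat initiation were flat in the center, in embryos with 3 to 4 somites, and those after it were raised there, in embryos with 4 to 5 somites. Each group had 3 samples, with 1 single-color array for each sample. The hearts were dissected without separating the first from the second heart field, the number of hearts behind each array is not given in the sources used here, and nothing says that the samples came from separate litters, so p-values measure the spread between these samples.

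Hox genes encode transcription factors that bind DNA through a homeodomain and give cells a position along the head-to-tail axis. They lie in clusters, and the paralog number gives the place in the cluster, so that low-numbered genes are switched on earlier and reach farther forward than high-numbered genes. In the heart field, Hoxb1 is known for marking the posterior part of the second heart field, which adds cells to both poles of the heart. Retinoic acid from the posterior mesoderm switches on the low-numbered genes, and Hox proteins bind DNA together with PBX and MEIS cofactors.

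Each probe is 60 bases long, and 5 of the 26 are shown because they lie in codons for parts that define the family and they differ in whether a signal was seen. The capitals mark codons for the first helix of the homeodomain in Hoxb1, for the DNA-binding helix near its end in Hoxd12, Hoxa6 and Hoxb8, and for the short motif before the homeodomain that holds PBX in Hoxb3. The probes of Hoxc12, Hoxc13 and Hoxd13 also hold codons for the DNA-binding helix and are not shown. The probes are on the rn4 genome at chr10:85099950-85100009 on the plus strand for Hoxb1, at chr3:57291311-57291370 on the plus strand for Hoxd12, at chr4:80506387-80506446 on the minus strand for Hoxa6, at chr10:85015077-85015136 on the plus strand for Hoxb8, and at chr10:85077371-85077430 on the plus strand for Hoxb3.
Hoxb1: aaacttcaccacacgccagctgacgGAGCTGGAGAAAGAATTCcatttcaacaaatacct
Hoxd12: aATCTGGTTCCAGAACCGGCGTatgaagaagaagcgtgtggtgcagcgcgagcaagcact
Hoxa6: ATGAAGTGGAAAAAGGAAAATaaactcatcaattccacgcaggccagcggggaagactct
Hoxb8: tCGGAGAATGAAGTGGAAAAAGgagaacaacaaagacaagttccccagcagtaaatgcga
Hoxb3: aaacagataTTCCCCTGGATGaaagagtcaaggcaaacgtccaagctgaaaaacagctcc
Over all pairs of the 26 probes, the longest run of identical bases was 17, between Hoxa6 and Hoxb8, and neither of these genes was well above background on any array. The next longest was 11 bases, between Hoxb8 and Hoxc12. The Hoxb1 probe gave signal on 5 of 6 arrays, the Hoxd12 probe on 3 and the Hoxb3 probe on 1.

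A signal counts here as well above background where the scanning software flagged at least 0.5 of the spots of a probe so. The Hox genes were mostly dim: 4 of 25 genes (16%) were well above background on all 6 arrays, 9 on some arrays and 12 (48%) on none, against 60.1% of all probes on all 6 arrays and 28.1% on none. The genes seen on all 6 arrays were Hoxb4, Hoxb7, Hoxd1 and Hoxd4, each with both spots of its probe flagged. With the weaker flag for a positive and significant signal, 13 genes were seen on all 6 arrays.

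By paralog number, detection was counted in 3 classes. Of the 7 genes with paralog numbers 1 to 4, 3 were well above background on all 6 arrays, 3 on some and 1, Hoxc4, on none. Of the 7 genes with numbers 5 to 8, Hoxb7 was seen on all 6 arrays, Hoxb6 on 5 and Hoxc5 on 3, whereas Hoxa6, Hoxa7, Hoxb8 and Hoxc6 were seen on none. Of the 11 genes with numbers 9 to 13, 0 were seen on all 6 arrays, but Hoxa9 was seen on 5, Hoxa13 on 4, Hoxd12 on 3 and Hoxc13 on 1. The 7 others with high numbers, Hoxa11, Hoxb9, Hoxb13, Hoxc12, Hoxd9, Hoxd10 and Hoxd13, were seen on none. By cluster, 0 of 6 Hoxa genes, 2 of 8 Hoxb genes, 0 of 5 Hoxc genes and 2 of 6 Hoxd genes were well above background on all 6 arrays. These are counts of what each probe detected, and levels were not compared between genes because probes differ in how brightly they bind.

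**Figure D1:**
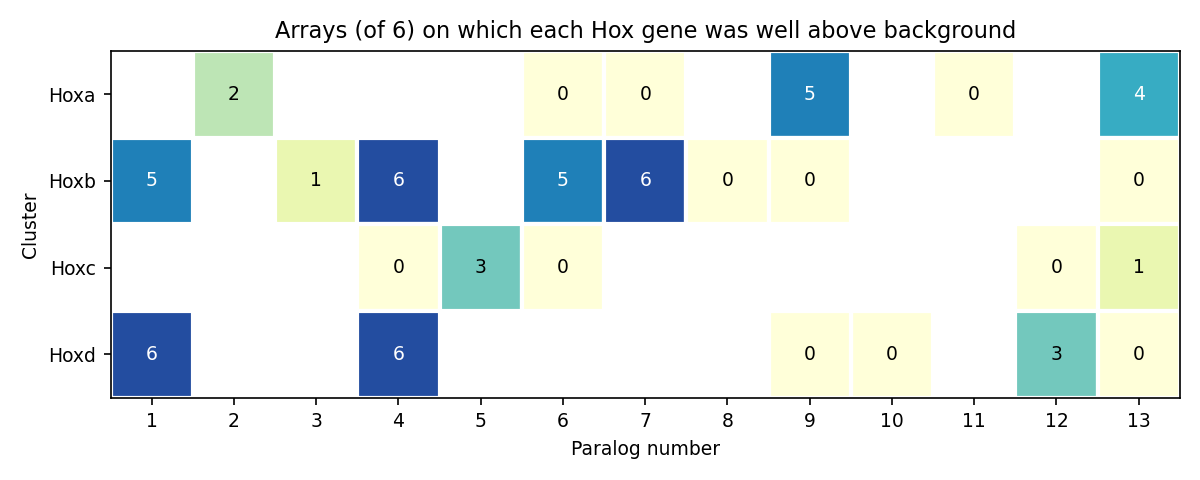
Number of arrays, out of 6, on which each Hox gene was well above background, with the cluster on the vertical axis and the paralog number on the horizontal axis. Blank places have no probe described here. The counts of 6 lie at numbers 1, 4 and 7, and no gene numbered 9 to 13 reaches 6.

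The arrays differed in how many Hox genes they showed, and the difference followed the glass slide. The arrays pre-heartbeat 1, post-heartbeat 1 and post-heartbeat 2 shared slide 1, and pre-heartbeat 2, pre-heartbeat 3 and post-heartbeat 3 shared slide 2. On slide 1, 11, 12 and 10 Hox genes were well above background, and on slide 2, 4, 8 and 8. All 3 arrays of slide 1 showed 10 of the genes and all 3 arrays of slide 2 showed 4. The array with 4 genes, pre-heartbeat 2, also had the lowest 75th percentile of signal, 1146 intensity units against 1268 to 1702 on the others, and its share of probes well above background was 63.5% against 64.0% to 67.2%. The part of the slide and of array brightness in these counts was not tested.

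**Figure D2:**
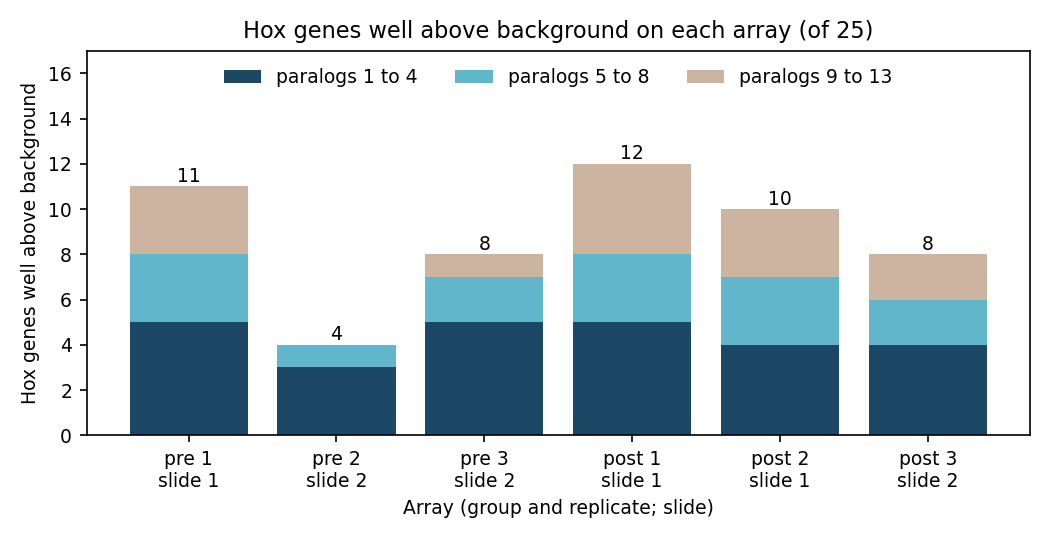
Number of Hox genes, out of 25, well above background on each array, with colors for the paralog numbers. The bars of slide 1 reach 10 to 12 genes and those of slide 2 reach 4 to 8.

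Whether Hox genes changed with the first heartbeat was asked of the 8 genes whose signal was well above background on the 3 arrays of 1 group or on all 6 arrays: Hoxa9, Hoxa13, Hoxb1, Hoxb4, Hoxb6, Hoxb7, Hoxd1 and Hoxd4. Hoxa9, Hoxa13, Hoxb1 and Hoxb6 met this condition through the post-heartbeat group alone, which favors a higher post-heartbeat value for them, so counts and medians over the 8 genes are descriptions. None of the 8 passed the threshold of an adjusted p of 0.05 (limma, adjusted over all 19299 tested probes), with 0 higher and 0 lower in the post-heartbeat group. Over all tested probes, 0.119% were called higher and 0.0207% lower. At an unadjusted limma p under 0.05, 2 of the 8 genes were counted, Hoxa9, which is among those favored by the condition, and Hoxb7, beside 7.01% of all tested probes. The selection of the study's methods, a fold of at least 1.5 with an unadjusted p under 0.05, held 0 of the 8 genes, against 1.89% of tested probes higher and 1.15% lower. With the slide as a block, 0 of the 8 passed in either direction, against 1.16% of tested probes higher and 0.461% lower, and 3 of the 8, Hoxa9, Hoxb7 and Hoxd1, had an unadjusted limma p under 0.05. The median log2 difference of the 8 genes, post-heartbeat minus pre-heartbeat, was 0.006, beside -0.03 over all tested probes. All values below are log2 signals less the 75th percentile of the array.

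Among the first paralogs, Hoxb1, which sets the identity of a hindbrain segment and marks posterior heart progenitors, had values of -3.99, -5.61 and -5.38 before and of -4.15, -4.17 and -5.03 after heartbeat initiation. Its highest array was a pre-heartbeat one, pre-heartbeat 2 was not well above background, and the groups overlapped. The log2 difference of Hoxb1 was 0.54 ± 0.46 (SE) with an adjusted p of 0.866 in limma, and the interval ran from -0.54 to 1.63. Blocking on the slide gave 0.15, and the difference was -0.17 within slide 1 and 0.46 within slide 2. Hoxd1, its paralog, had values of -3.30, -5.24 and -4.29 before and of -4.33, -4.13 and -5.27 after. Its pre-heartbeat arrays held the highest value and spread nearly as low as the post-heartbeat ones, and the log2 difference was -0.30 ± 0.51 (SE) with an adjusted p of 0.880 in limma. With the slide as a block the difference of Hoxd1 was -0.72, with a 95% confidence interval from -1.31 to -0.13, an unadjusted p of 0.0228 and an adjusted p of 0.353 in limma, and it was -0.93 within slide 1 and -0.51 within slide 2.

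Hoxa2, which patterns the second branchial arch, and Hoxb3, which acts in the branchial arches and hindbrain, were too dim to be tested. Hoxa2 was well above background on pre-heartbeat 1, at -6.29, and on post-heartbeat 1, at -4.62, both on slide 1, and was between -8.14 and -6.60 on the other arrays. Hoxb3 was well above background on pre-heartbeat 3 alone, at -6.62, and there on 1 of its 2 spots.

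The fourth paralogs, which act from the posterior hindbrain backward, were seen in 2 clusters of 3. Hoxb4 had values of -4.15, -5.22 and -4.90 before and of -4.47, -4.55 and -5.13 after heartbeat initiation. The groups overlapped fully, and the log2 difference was 0.04 ± 0.31 (SE) with an adjusted p of 0.975 in limma. Hoxd4 had values of -5.01, -5.08 and -5.27 before and of -5.27, -5.12 and -5.25 after. The 6 arrays lay within 0.26 on the log2 scale, the narrowest range of the 8 tested genes, and the 95% confidence interval of the difference, from -0.42 to 0.24, leaves room for changes of that size. Hoxc4 was below the flag on all arrays.

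Hoxb7, a trunk gene expressed in mesoderm and spinal cord, was the 1 tested gene whose groups did not overlap. It had values of -4.03, -4.15 and -4.30 in the pre-heartbeat group and of -4.75, -4.86 and -4.56 in the post-heartbeat group. The mean was -4.16 ± 0.14 (SD, n = 3) before and -4.72 ± 0.15 (SD, n = 3) after, with each post-heartbeat array below each pre-heartbeat array. The log2 difference was -0.56 ± 0.15 (SE), a level 1.48-fold higher before heartbeat, with an adjusted p of 0.314 in limma. The exact permutation test gave a two-sided p of 0.1, which is the smallest that 3 against 3 arrays allow, and a separation of the same kind, with lower post-heartbeat values, was found for 6.14% of the tested probes. Within slide 1 the difference was -0.78 and within slide 2 it was -0.34. Blocking on the slide gave an adjusted p of 0.171 in limma. Hoxb7 was also one of 2 tested genes, with Hoxd4, whose slides differed by under 0.2 on the log2 scale.

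Hoxa9, a gene of the high-numbered end known for its part in trunk and blood cell development, had values of -4.77, -5.79 and -5.61 before and of -4.19, -4.37 and -4.94 after heartbeat initiation. The groups overlapped by 1 pair of arrays, since pre-heartbeat 1 on slide 1 lay above post-heartbeat 3 on slide 2. The log2 difference was 0.89 ± 0.32 (SE), with an unadjusted p of 0.0258 and an adjusted p of 0.562 in limma, and it was 0.50 within slide 1 and 0.76 within slide 2. Blocking on the slide gave 0.63, with a 95% confidence interval from 0.29 to 0.96 and an adjusted p of 0.10 in limma. Without the block, the interval ran from 0.14 to 1.64. The Hoxa9 probe has 1 spot, which was below the flag on pre-heartbeat 2. Hoxa9 was tested through the post-heartbeat group alone, which favors a higher post-heartbeat value, so these intervals are descriptions.

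Hoxb6, a trunk gene of lateral mesoderm, spread over 3.59 on the log2 scale, from -6.74 on pre-heartbeat 2 to -3.15 on pre-heartbeat 1. Hoxb6 was below the flag on pre-heartbeat 2, so the spread rests in part on an undetected signal. The difference of its group means, -0.01 ± 0.85 (SE), was smaller than the spread within either group. With the slide as a block it was -0.60 (adjusted p of 0.953 in limma), and it was -1.27 within slide 1 and 0.06 within slide 2. Hoxa13, a gene of the hindmost part of the body and the limb bud, lay between -6.58 and -5.81, close to the limit of detection on all arrays, with a log2 difference of 0.02 ± 0.25 (SE).

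**Figure D3:**
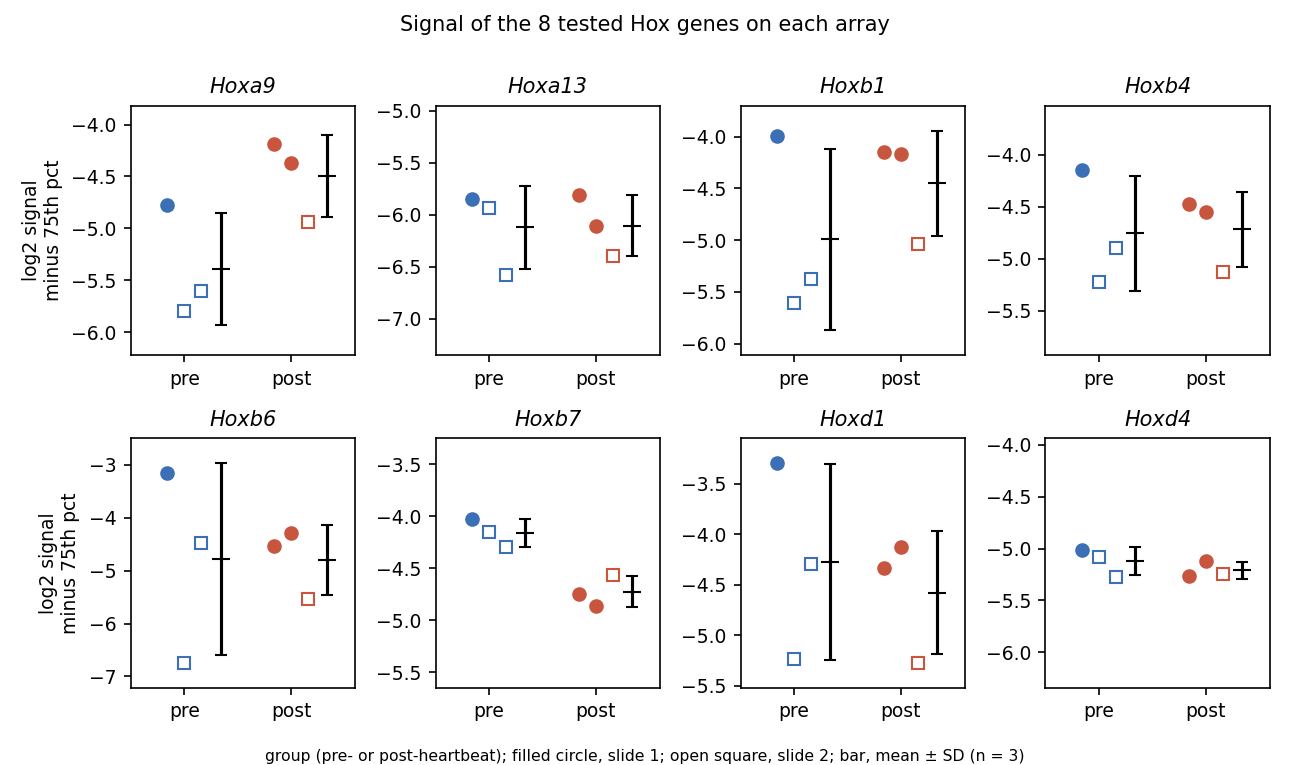
Log2 signal of the 8 tested Hox genes, less the 75th percentile of each array, with 1 point for each array and the mean ± SD (n = 3) beside each group. Filled circles are slide 1 and open squares are slide 2. The groups are apart in Hoxb7 alone, and in Hoxa9, Hoxb1 and Hoxb4 all circles lie above all squares.

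The tested Hox genes differed between slides. With the group in the model, 4 of the 8 tested genes, Hoxa9, Hoxb1, Hoxb4 and Hoxd1, were lower on slide 2 than on slide 1 (limma, adjusted p under the threshold) and 0 were higher. Over all tested probes, 8.75% were lower on slide 2 and 7.57% were higher. Hoxa9, Hoxa13, Hoxb1 and Hoxb6 were tested through the post-heartbeat group alone, and their arrays below the flag were all on slide 2. This favors a lower value on slide 2 for them, so the counts and medians over the 8 genes are descriptions here too. The log2 difference, slide 2 minus slide 1, was -1.25 ± 0.26 (SE) for Hoxd1, -1.19 ± 0.18 for Hoxb1, -0.80 ± 0.15 for Hoxa9 and -0.77 ± 0.15 for Hoxb4, with adjusted p between 0.00531 and 0.0167 in limma. Hoxb6 differed by -1.79 ± 0.56 (SE), with an adjusted p of 0.0654. The slides did not overlap for Hoxa9, Hoxb1 and Hoxb4, and the same held for 18.3% of the tested probes with slide 2 as the lower one. The median difference between slides was -0.78 for the 8 genes and 0.07 over all tested probes. Without pre-heartbeat 1, 0 genes passed in limma, against 2.30% of tested probes lower on slide 2, and 4 of the 8 had an unadjusted p under 0.05 in this direction, against 10.5%. Without post-heartbeat 3, 1 gene, Hoxb1, was lower, against 1.08%. The direction was lower on slide 2 for 7 of the 8 genes without pre-heartbeat 1 and for 8 of 8 without post-heartbeat 3.

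Of the Hox genes not tested, Hoxa2, Hoxc4 and Hoxd12 lay lower on slide 2 without overlap, and Hoxa7 and Hoxb8 lay higher. Hoxc4, Hoxa7 and Hoxb8 were below the flag on all arrays. Hoxd12, a gene of the limb and hind body, was well above background on the 3 arrays of slide 1, at -5.10, -5.26 and -5.30, and on none of slide 2, at -7.79, -6.00 and -6.99. Hoxc5 was flagged on the same 3 arrays, at -6.10, -5.85 and -5.23, and on none of slide 2, at -6.01, -6.55 and -6.59, though its slides overlapped. The other Hoxc5 probe was below the flag on all arrays and went the other way, at -8.23, -8.17 and -7.96 on slide 1 and at -7.66, -7.38 and -7.83 on slide 2. Hoxb8 was below the flag on all arrays too, and lay higher on slide 2 without overlap, at -6.88, -7.29 and -7.84 on slide 1 and at -5.91, -6.29 and -6.57 on slide 2. Hoxa7, below the flag as well, was between -8.22 and -8.12 on slide 1 and between -8.11 and -7.51 on slide 2. Its intensities were only 4.58 to 7.9 units, so its direction is uncertain too. None of these genes met the condition for a test. What the slides share is not given, since the arrays of a slide lie on the same glass but the labels do not tell whether their embryos were dissected together. The part of the slide in the Hox differences cannot be told apart from that of the embryos on it.

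**Figure D4:**
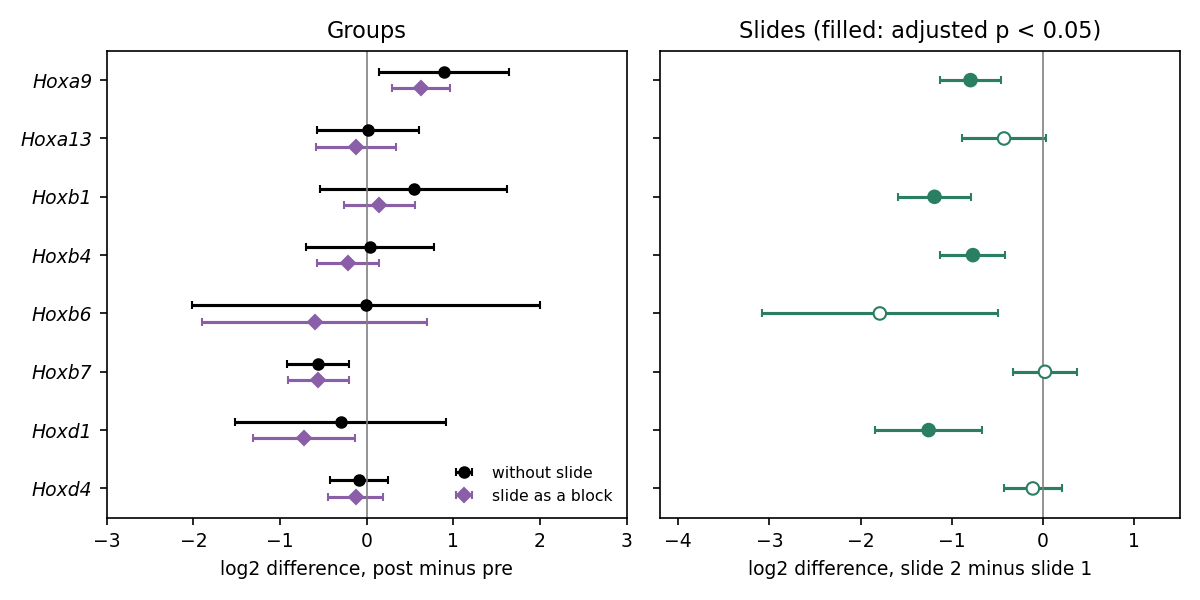
Log2 differences of the 8 tested Hox genes with 95% confidence intervals from limma, post-heartbeat minus pre-heartbeat on the left (circles without the slide, diamonds with the slide as a block) and slide 2 minus slide 1 on the right. Filled points on the right mark an adjusted p under the threshold, which 4 genes reach, all below 0.

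Probes of the Hox loci that the array lists under other names were read for context, as they are no members. A probe described as homeobox B2 was well above background on 5 arrays and had values of -3.84, -6.42 and -5.79 before and of -4.19, -4.02 and -6.08 after heartbeat initiation. Its slides differed by -2.12 on the log2 scale (adjusted p of 7.03e-04 in limma), with the 3 arrays of slide 1 above those of slide 2, and its groups by 0.58 (adjusted p of 0.866). This probe was tested through the post-heartbeat group alone, and its array below the flag was a pre-heartbeat one on slide 2. That favors a lower value on slide 2 and a higher post-heartbeat value, so both differences are descriptions. Hoxa11-as, a noncoding RNA antisense to Hoxa11, was well above background on all 6 arrays, whereas Hoxa11 itself was seen on none. Hoxa11-as differed by 0.49 between groups (adjusted p of 0.85 in limma) and by -0.61 between slides (adjusted p of 0.0203). A probe without a gene name inside the Hoxb span and another inside the Hoxc span were also well above background on all 6 arrays. The one in the Hoxb span differed by -0.56 between groups (adjusted p of 0.86 in limma) and by -0.38 between slides (adjusted p of 0.337). The one in the Hoxc span differed by 0.02 between groups (adjusted p of 0.984 in limma) and by -0.58 between slides (adjusted p of 0.0503). The probes for Hoxa3 and those described as Hox-A5, Hox3.3, HOXA10 and Hox2.4 were well above background on 0 arrays.

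Most of the partners of Hox proteins were seen on all arrays. Of 7 cofactor genes with a probe, 6 were well above background on all 6 arrays, beside 60.1% of all probes. Of the 6 tested, 0 passed in either direction. Over all tested probes, 0.119% passed as higher and 0.0207% as lower, so 0 in a short list is near that share. Meis1 was 2.71 ± 0.06 before and 2.78 ± 0.24 after (SD, n = 3), and Meis2 was -0.04 ± 0.12 before and -0.24 ± 0.07 after, with adjusted p between 0.866 and 0.913 in limma. Meis3 was lower on slide 2, by -0.95 on the log2 scale (adjusted p of 0.0338).

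Among the upstream regulators, Cdx1, a caudal homeobox gene that activates trunk Hox genes, was 2.21 ± 0.12 before and 2.13 ± 0.23 after heartbeat initiation (SD, n = 3), with an adjusted p of 0.898 in limma. Its relative Cdx2 was well above background on 2 arrays, pre-heartbeat 1 at -4.71 and post-heartbeat 1 at -5.71, and Cdx4 on none. Of the Cdx and ParaHox list, 1 of 5 genes with a probe was tested, and 0 passed. The Hox-like homeobox list had 1 tested gene of 7, Gbx2, which did not pass between groups and was lower on slide 2 by -1.19 (adjusted p of 0.0461 in limma). Gbx2 was tested through the post-heartbeat group alone, and its array below the flag was on slide 2. That favors a lower value on slide 2, so this difference is a description.

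The retinoic acid list had 18 tested genes of 19 with a probe, and 0 passed between groups without the slide. Cyp26a1, the enzyme that breaks down retinoic acid, had values of -0.39, -0.12 and -0.11 before and of -1.05, -1.12 and -1.06 after heartbeat initiation, with no overlap between groups. The log2 difference was -0.87 ± 0.14 (SE), a level 1.83-fold higher before heartbeat, with an adjusted p of 0.0999 in limma. When the slide was a block it passed, at -0.82 with an adjusted p of 0.0310, and it was -0.70 within slide 1 and -0.94 within slide 2. Aldh1a2, the enzyme that makes retinoic acid, had values of -3.94, -4.93 and -5.31 before and of -3.36, -3.64 and -5.95 after. Its groups overlapped (adjusted p of 0.880), and it was lower on slide 2 by -1.82 (adjusted p of 0.00583 in limma). Rarg, a retinoic acid receptor, was lower on slide 2 by -1.31 and Stra6, which takes up retinol, by -1.06. Rdh10, which oxidizes retinol, was lower by -0.90 and Rxrb, the partner receptor, by -0.86. In this list, 5 of 18 tested genes were lower on slide 2 and 0 were higher, beside 8.75% and 7.57% of all tested probes. Rarb was not analysed here, as no probe was found under that name.

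Of the hindbrain regulators, 2 of 6 genes with a probe were tested and 0 passed between groups. Egr2, a hindbrain segment gene, was well above background on post-heartbeat 1 alone, at -5.91. Chromatin regulators of the clusters were seen throughout. Polycomb genes, which keep Hox genes silent, were well above background on all 6 arrays in 12 of 12 cases. The same held for 8 of 8 Trithorax genes, which keep them active, beside 60.1% of all probes. In both lists 0 passed between groups, which is near the 0.119% higher and 0.0207% lower over all tested probes. Ring1 (-1.04), Phc2 (-0.81) and Men1 (-0.77) were lower and Ash1l (0.59) was higher on slide 2, beside 8.75% of all tested probes lower and 7.57% higher. Of the posterior signals, 8 of 12 genes with a probe were tested and 0 passed between groups. Between slides, Fgf8 was lower on slide 2 by -0.88 and Wnt3a was higher by 0.98, which is 1 of 8 tested genes each way. The median log2 difference between groups was 0.04 for the cofactors, 0.03 for the retinoic acid list, 0.08 for Polycomb, -0.11 for Trithorax and -0.02 for the posterior signals, beside -0.03 over all tested probes.

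**Figure D5:**
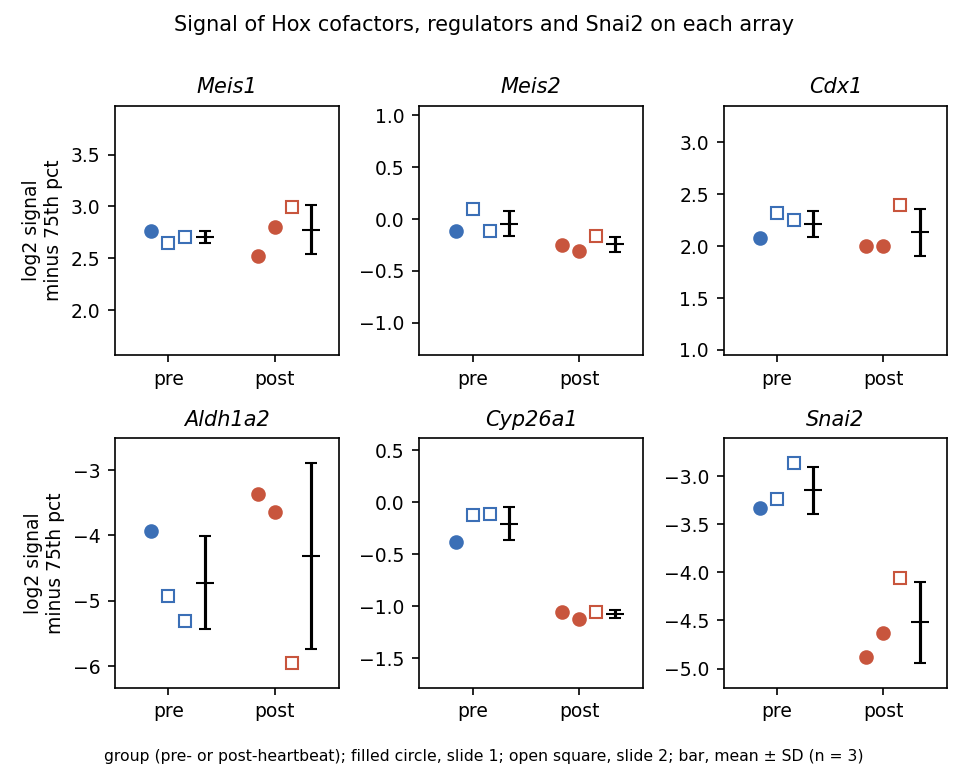
Log2 signal, less the 75th percentile of each array, of the cofactors Meis1 and Meis2, the regulators Cdx1, Aldh1a2 and Cyp26a1, and the neural crest gene Snai2, with 1 point for each array and the mean ± SD (n = 3). Cyp26a1, Meis2 and Snai2 have groups that do not overlap, all lower in the post-heartbeat group, and Aldh1a2 has its 3 circles of slide 1 above its squares of slide 2.

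The tissue label was read against markers. All 9 cardiac muscle genes were well above background on all 6 arrays, and the log2 of their summed signal was between 8.39 and 9.19 before and between 9.24 and 9.53 after heartbeat initiation. Myh6, a cardiac myosin heavy chain, had values of 5.30, 5.43 and 6.004 before and of 6.35, 6.35 and 6.79 after. Its log2 difference of 0.92 ± 0.23 (SE) did not pass without the slide (adjusted p of 0.285 in limma). It passed with the slide as a block, at 1.06 with an adjusted p of 0.0324, and was in the methods' selection. As these are bulk samples, fewer cells of a type and less RNA per cell cannot be told apart. Markers of neighboring tissues that express Hox genes were measured too, and their part in the Hox values was not tested. The summed hindbrain markers lay between -0.95 and 0.45 before and between -0.78 and 0.11 after, with 2 of 5 genes on all 6 arrays. The summed neural crest markers lay between 3.11 and 3.23 before and between 3.23 and 3.25 after, with Foxd3 seen on no array. The median log2 difference of the 4 tested genes of that list was -0.37. Snai2, a neural crest and mesenchyme gene, had values of -3.33, -3.24 and -2.87 before and of -4.88, -4.63 and -4.06 after, with a difference of -1.37 and an adjusted p of 0.116 in limma, and it passed with the slide as a block (adjusted p of 0.0216).

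Between groups, 0 genes of the other marker lists passed, with or without the slide. Over all tested probes, 0.119% passed as higher and 0.0207% as lower without the slide, and 1.16% and 0.461% with it. Of the paraxial mesoderm list, 3 of 8 genes were on all 6 arrays, Mesp2 and Msgn1 were seen on none, and the summed level lay between 3.76 and 4.01 before and between 4.001 and 4.15 after. Of the posterior second heart field list, 3 of 5 genes were on all 6 arrays, with sums between 0.18 and 0.60 before and between 0.01 and 0.34 after. The tail bud sums lay between 2.20 and 2.38 before and between 2.12 and 2.47 after, with Cdx4 seen on none, and the intermediate mesoderm sums between -2.15 and -1.42 before and between -1.78 and -1.47 after. The sums were lower after heartbeat initiation without overlap for foregut endoderm, from between 2.19 and 2.39 to between 2.06 and 2.17, for endothelium, from between 3.89 and 3.99 to between 3.33 and 3.57, and for yolk sac endoderm, from between 5.46 and 5.56 to between 4.86 and 5.22. A sum weighs the brightest genes of a list most. The median log2 differences of the tested genes were -0.12 for foregut endoderm, -0.20 for endothelium and -0.35 for yolk sac endoderm. Of single tested probes, 6.14% lay lower after heartbeat initiation without overlap. Shh was the foregut gene seen on no array.

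Some markers differed between slides too, as did many probes: over all tested probes, 8.75% were lower and 7.57% higher on slide 2. The genes below are named because they passed, out of 3 to 9 tested genes in each marker list. Foxc2 (-1.53), the intermediate mesoderm gene Pax8 (-1.42), the yolk sac genes Amn (-1.69), Apoa1 (-0.999) and Apob (-0.57), the neural gene Pou3f1 (-0.63) and the cardiac factor Nkx2-5 (-0.98) were lower on slide 2. The endothelial genes Cdh5 (0.88) and Tek (0.67), the cardiac genes Tnnt2 (0.55) and Mef2c (0.53), the heart field gene Isl1 (0.50) and Ets1 (0.76) were higher on slide 2 (limma, adjusted p under the threshold for each). The summed paraxial mesoderm markers lay between 4.01 and 4.15 on slide 1 and between 3.76 and 4.001 on slide 2, and the summed tail bud markers between 2.12 and 2.20 on slide 1 and between 2.33 and 2.47 on slide 2. The summed posterior second heart field markers were higher on slide 2 without overlap, between 0.34 and 0.60 against between 0.01 and 0.18 on slide 1. The median log2 differences between slides over the tested genes were 0.01 for this list, -0.05 for the tail bud list and -0.86 for the paraxial mesoderm list. The summed neural markers overlapped, between -0.59 and 0.45 on slide 1 and between -0.95 and -0.43 on slide 2.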

How the data were processed

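RNA of 6 heart primordium samples was labeled by the authors from 10 ng with Cy3 and hybridized to 1-color Agilent rat arrays. Per the file headers, the deposited intensity was made with Feature Extraction 10.7.3.1, which subtracts background, on the rn4 build. A table of ratios, also deposited by the authors, had been shifted to the 75th percentile and divided by a baseline, and was used as an alternative.

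Here, control and outlier spots were left out, log2 of the processed intensity less the 75th percentile of each array was averaged over the spots of a probe, and probes well above background on the 3 arrays of 1 group or on all 6 arrays were tested with limma 3.58.1 in R 4.3.3, with Benjamini-Hochberg adjustment over 19299 probes. A gene has the probe with the highest mean signal. A value was missing on some array for 2 tested probes. The median of all tested probes was between -1.38 and -1.27, 0 spots were saturated, and the number of arrays limits the precision. Names came from RefSeq tables by transcript, older symbol or symbol. Single genes were compared by an exact two-sided permutation test over 20 assignments of arrays. The slide was taken from the scanner header.

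All Hox genes with a probe well above background on the arrays of at least 1 group are named, with each array's value where the groups did not overlap or the paralog number is 1 to 4, and some others after their values were seen. Companion and marker genes are named if they were in the methods' selection, a fold of 1.5 and an unadjusted p below 0.05 by Tukey HSD, which with 2 groups equals the pooled comparison, or passed limma with or without the slide, besides a few fixed regulators, and some genes are not reported here. The companion lists were Hox cofactors, Cdx and ParaHox, Hox-like homeobox, retinoic acid, hindbrain regulators, Polycomb, Trithorax and posterior signals. The members and lists were chosen with earlier results of these data known. The fits were tested on simulated data. Alternatives were normexp with an offset of 50, quantile normalization, another percentile basis, other filters, blocks, tests, flags and leaving out each array. The setting with the flag on every spot was chosen after seeing the data.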

Additional observations from a re-analysis of the deposited data

How the results depend on the processing

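The counts of 0 Hox genes higher and 0 lower in the post-heartbeat group were the same under all alternatives run, the methods' selection and the intensity trend included, and without each array. The differences within a slide are not among these alternatives, and within slide 1 Hoxb1 turned to -0.17 and Hoxb7 was -0.78. In the alternatives, Hoxa9, Hoxb1, Hoxb7 and Hoxd4 kept their direction. There Hoxb7 lay between -0.65 and -0.31, Hoxa9 between 0.29 (normexp) and 1.202 (without pre-heartbeat 1), and Hoxb1 between 0.11 (normexp) and 1.05 (without pre-heartbeat 1). Signs of differences near 0 turned in others: Hoxa13 was -0.058 and Hoxb4 was -0.077 with normexp, Hoxb6 was 0.064 with quantile normalization, Hoxa13 was -0.001 with the authors' ratios, and Hoxa13 was -0.125 and Hoxb4 was -0.218 with the slide as a block. Leaving out 1 array gave -0.21 to 0.17 for Hoxa13, -0.20 to 0.34 for Hoxb4, -0.98 to 0.81 for Hoxb6 and -0.78 to 0.19 for Hoxd1. The median of the Hox genes lay between -0.13 and 0.27 without 1 array. Companion genes lower in the post-heartbeat group were 0 without and 1 with the slide as a block. Hox genes lower on slide 2 were 4, or 3 with normexp (Hoxb1, Hoxb6 and Hoxd1), and 0 to 6 without 1 array. Hox genes well above background on all 6 arrays were 4, or 13 with the flag for a positive and significant signal, and 4 to 7 without 1 array, with 7 without pre-heartbeat 2. The causes were not tested. The labels share replicate numbers, and same-numbered arrays had r of 0.65, -0.28 and 0.49 between their deviations over probes. Arrays numbered 1 and 3 shared a slide across groups and those numbered 2 did not. Differently numbered arrays on the same slide, pre-heartbeat 1 with post-heartbeat 2 and pre-heartbeat 2 with post-heartbeat 3, both had r of 0.50. So r cannot tell whether the numbers pair the samples. With the replicate block, 0 Hox genes passed, Hoxb7 was -0.56 with an adjusted p of 0.337, and 144 probes were called against 27 without it, with Snai2 at an adjusted p of 0.0234 (limma).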
